A study of Schizosaccharomyces pombe with 4 samples.

Results

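The genes described here are 146 annotated noncoding RNAs of fission yeast (Schizosaccharomyces pombe) whose locus holds no other gene in the authors' deposited table. They carry SPNCRNA identifiers, were tested by the authors and averaged 1 FPKM or more across the 2 groups. FPKM is fragments counted per kilobase of transcript, scaled for sequencing depth. The table holds 7092 genes, of which 1535 have such an identifier and 243 of these stand alone in their locus. Of the 243, 75 were not tested by the authors and 22 fell under the limit on the mean. SPNCRNA.24, with a mean of 1.01 FPKM, lay just inside this limit and SPNCRNA.493, with 0.991 FPKM, just outside. Of the 146 RNAs, 102 had at least 1 FPKM with both labels, 36 were under 1 FPKM in the vector-labelled group and 8 in the Atf1-labelled group. The 44 RNAs below that level in 1 group passed the limit through the group in which they were high.

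Poly(A)-selected, stranded libraries were made from h90 cells of genotype ade6leu1 ura4 pcr1::ura4+ per the labels. That genotype names a deletion of pcr1, which encodes the usual bZIP partner of the stress transcription factor Atf1. There were 2 libraries with the empty plasmid pREP41 ("vector") and 2 with pREP41-Atf1 ("Atf1"), and the labels give the deletion for both groups, against which the levels of pcr1 and ura4 are set below. In pREP41 a weakened nmt1 promoter, which thiamine represses, drives the insert. Cells grew at 30 °C overnight in minimal medium without leucine (EMM-Leu) with 20 µM thiamine, then for 24 h without thiamine, and whether a group's libraries are separate cultures is not in the labels.

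Long noncoding RNAs of fission yeast are transcribed by RNA polymerase II, often from promoters shared with a neighbouring gene, and many are short-lived because the nuclear exosome and its cofactors degrade them. Some act through their transcription, such as the RNAs made upstream of fbp1 when glucose is scarce or the RNA made upstream of tgp1, whose transcription represses that gene. Others act as molecules, such as the meiRNA encoded by sme2, which holds the RNA elimination factor Mmi1 in meiosis.

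The labels were not borne out by the genes of the genotype, so each group is called by its label only. Where 2 levels are given below, the Atf1-labelled group comes first and the vector-labelled group second. The atf1 gene was at 54.4 and 60.9 FPKM, and its locus holds 2 genes. The pcr1 gene, deleted per the labels, was read at 66.4 and 35.8 FPKM. The ura4 gene was listed at 0 and at 124.8 FPKM, and the authors' deposited table gives it q = 0.00809. The deposited values are pooled, with 1 value for each gene in a group. Neither the spread between libraries nor their depth can therefore be given, and the p- and q-values cited are the authors'. FPKM summed to 1321550 in the Atf1-labelled and 835070 in the vector-labelled group. Structural RNAs without poly(A) tails (tRNAs, rRNAs, snRNAs and snoRNAs) made up 3.28% of the Atf1-labelled sum and 1.22% of the vector-labelled sum. Their median difference over 68 genes was 3.39 on the log2(FPKM + 1) scale, Atf1-labelled minus vector-labelled, which is the scale of every difference given here and understates changes of low genes.

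The start regions of 4 RNAs are shown, each from 250 bases before to 50 bases into the annotated RNA, as RefSeq gives them in the assembly ASM294v3. SPNCRNA.810, SPNCRNA.667, SPNCRNA.907 and SPNCRNA.1326 are 4 of 15 RNAs whose window holds the 6 letters TGACGT or, on the other strand, ACGTCA. These letters are the core of the sites that factors of the Atf1 family bind. All 4 were higher with the Atf1 label, as were 12 of the 15 and 93 of the 127 RNAs whose window lacks the motif. Of the 4, SPNCRNA.810 had q = 0.0241 in the authors' deposited table, and the others had q of 0.201 or more there. SPNCRNA.530, which also holds the motif and was lower, is not shown. Capitals mark that motif, sequences run 5′ to 3′ along the RNA's strand, and a match describes letters only.
SPNCRNA.810, chrI:2291489-2291788, minus strand: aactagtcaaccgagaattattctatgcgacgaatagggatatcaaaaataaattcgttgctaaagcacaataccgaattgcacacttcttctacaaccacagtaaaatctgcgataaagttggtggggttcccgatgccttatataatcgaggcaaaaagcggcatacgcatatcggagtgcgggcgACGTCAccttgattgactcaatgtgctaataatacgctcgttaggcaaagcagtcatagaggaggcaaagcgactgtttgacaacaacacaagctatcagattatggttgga
SPNCRNA.667, chrI:608782-609081, minus strand: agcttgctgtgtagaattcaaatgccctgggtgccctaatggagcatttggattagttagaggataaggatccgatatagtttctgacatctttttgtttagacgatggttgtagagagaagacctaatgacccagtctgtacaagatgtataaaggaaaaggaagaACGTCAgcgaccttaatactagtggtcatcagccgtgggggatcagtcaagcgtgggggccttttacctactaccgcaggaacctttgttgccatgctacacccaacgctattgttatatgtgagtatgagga
SPNCRNA.907, chrI:3405880-3406179, minus strand: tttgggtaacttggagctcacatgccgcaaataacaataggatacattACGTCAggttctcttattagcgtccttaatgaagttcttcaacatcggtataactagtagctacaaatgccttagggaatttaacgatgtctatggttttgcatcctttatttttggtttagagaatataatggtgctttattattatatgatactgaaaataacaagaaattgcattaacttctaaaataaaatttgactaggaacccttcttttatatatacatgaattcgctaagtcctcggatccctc
SPNCRNA.1326, chrII:201763-202062, minus strand: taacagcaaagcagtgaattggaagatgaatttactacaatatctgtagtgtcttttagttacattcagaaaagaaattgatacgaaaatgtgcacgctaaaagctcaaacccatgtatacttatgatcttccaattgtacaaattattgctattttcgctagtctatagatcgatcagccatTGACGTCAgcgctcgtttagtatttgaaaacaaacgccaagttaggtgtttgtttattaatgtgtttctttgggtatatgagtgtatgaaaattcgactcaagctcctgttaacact

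The first base of the motif lay at position -62 in SPNCRNA.810, -83 in SPNCRNA.667, -202 in SPNCRNA.907 and -67 in SPNCRNA.1326, counted from the first base of the RNA as position 0. In SPNCRNA.1326 the match is the palindrome TGACGTCA. A window was available for 142 of the 146 RNAs, and 15 of them (10.6%) held the motif. The share was 7.54% of 928 windows of noncoding RNAs that share a locus, 5.96% of 4965 windows of protein-coding genes and 6.29% of 1733 windows of protein-coding genes alone in their locus. The 15 RNAs with the motif had a median difference of 0.77, with 12 above 0, and the 127 without it also 0.77, with 93 above 0. Among the RNAs with the motif, differences ran from -2.40 (SPNCRNA.530) to 2.76 (SPNCRNA.667).

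Most of the noncoding RNAs were listed higher in the libraries labelled Atf1. Their median level was 4.23 FPKM in the Atf1-labelled and 2.21 FPKM in the vector-labelled group, and their summed level was 1682 and 952 FPKM. The difference was above 0 for 107 of 146 RNAs (73.3%), against 44.6% of the 6219 genes of the table kept by the same limits. With the groups scaled to equal FPKM totals, 86 of the 146 (58.9%) were above 0. The 44.6% is not on that scaling, under which the median difference was 0.31 for the 146 and -0.73 for all genes kept. Without that scaling the median difference of the 146 was 0.76, with an interquartile range of -0.04 to 1.53. It was -0.11 over all 6219 genes, -0.09 over 1734 protein-coding genes alone in their locus and 0.22 over 985 noncoding RNAs that share a locus. Over the 102 RNAs with at least 1 FPKM with both labels the median was 0.53. The structural RNAs, with a median of 3.39 over 68 genes, moved in the same direction, and their part in these values was not tested.

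**Figure D1:**
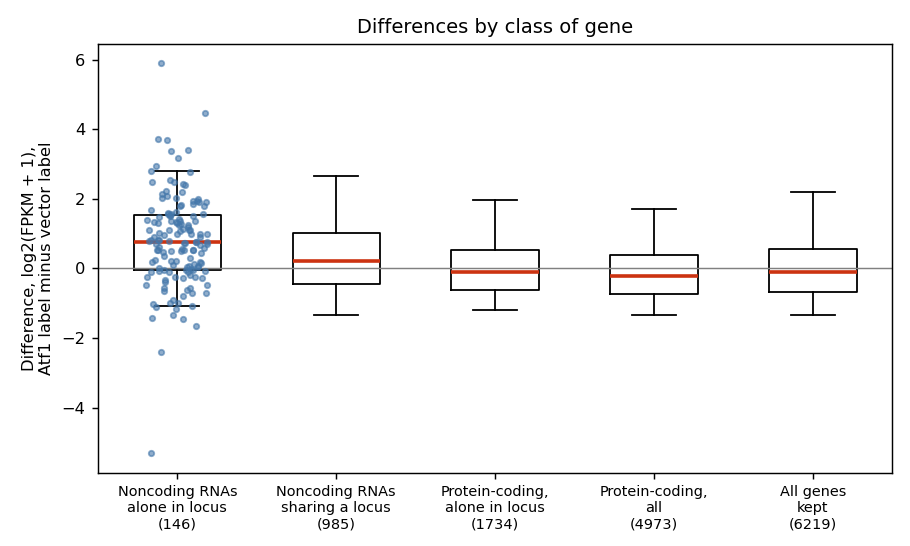
Differences on the log2(FPKM + 1) scale, Atf1 label minus vector label, for 5 classes of gene, with the number of genes in brackets. Boxes span the quartiles with the median in red, whiskers the 5th to 95th percentiles, and points are the 146 noncoding RNAs alone in their locus. Their median lies at 0.76, against -0.11 for all genes kept.

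By the authors' q-value under 0.05, 7 of the 146 RNAs rose in the libraries labelled Atf1 and 1 fell. Over all 6219 genes the shares were 1.82% higher and 0.129% lower. At an unadjusted p-value under 0.05 in the authors' deposited table, 34 RNAs were higher and 3 lower, against 6.8% and 4.04% of all genes. A difference of at least 4-fold on the log2(FPKM + 1) scale was found for 21 RNAs upwards and 2 downwards, against 5.74% and 0.997% of all genes. Of the 21, 11 had at least 1 FPKM with both labels. The 21 were 652 bases long at the median with a GC content of 35.7%, and the other 125 were 609 bases long with 32.2%.

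**Figure D2:**
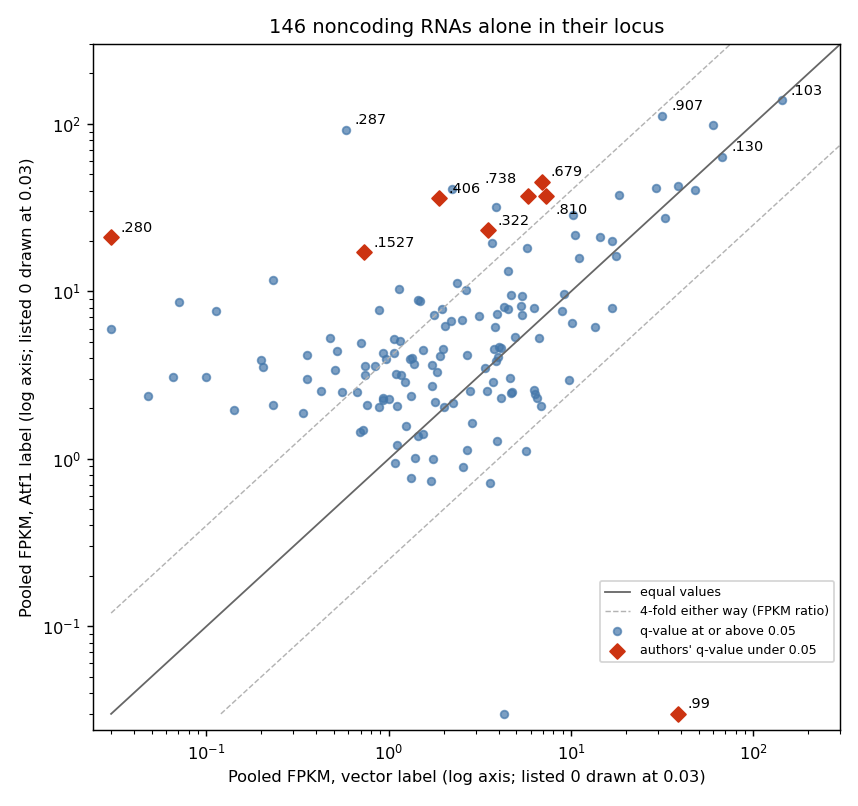
Pooled FPKM of each of the 146 noncoding RNAs with the vector label (horizontal) and the Atf1 label (vertical), on log axes, with values listed at 0 drawn at 0.03. Red diamonds are the 8 RNAs with an authors' q-value under 0.05, labelled with the number in their identifier, and SPNCRNA.287, SPNCRNA.907, SPNCRNA.103 and SPNCRNA.130 are labelled as well. Of the 8, 7 lie above the line of equal values and SPNCRNA.99, listed at 0 with the Atf1 label, below it.

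SPNCRNA.679 (chromosome I, 762720-764810, plus strand) was at 45.2 and 6.90 FPKM, 6.55-fold higher. It rose by the authors' deposited table, with p = 5e-05, the smallest p-value that table gives, and q = 0.00809. It is transcribed away from puf5, which encodes an RNA-binding protein of the Pumilio family, and the 2 loci lie 5 bases apart. The level of puf5 was 5.70 and 4.96 FPKM (q = 0.997 in the authors' deposited table), and its difference was 0.17 against 2.55 for the RNA.

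SPNCRNA.322 (chromosome II, 674049-676227, plus strand) stood at 23.2 and 3.52 FPKM, and rose with the same p and q in the authors' deposited table. The nearest coding locus is that of pfl3, a flocculin, which is a cell-surface glycoprotein of cell-to-cell adhesion. It lies 206 bases away on the opposite strand, with 32.9 and 7.53 FPKM. The pfl3 gene rose with q = 0.0241 in the authors' deposited table, in a locus of 3 genes. By the ASM294v3 gene bounds the nearest coding gene is apl2 on the other side, at 9.77 and 11.1 FPKM.

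SPNCRNA.810 (chromosome I, 2290391-2291538, minus strand) was at 37.0 and 7.31 FPKM, and rose with q = 0.0241 in the authors' deposited table. Its neighbour SPAC4G9.22, 127 bases away and divergent, was at 90.6 and 36.1 FPKM (q = 0.944 there). SPNCRNA.738 (chromosome I, 1359979-1360931, minus strand) was at 37.0 and 5.78 FPKM. It rose with q = 0.0328 in the authors' deposited table, beside pas1, which encodes a cyclin, at 83.3 and 55.3 FPKM (q = 0.997).

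SPNCRNA.406 (chromosome II, 2738941-2739592, plus strand) stood at 35.9 and 1.89 FPKM, and rose with q = 0.0289 in the authors' deposited table. The RNA ends 63 bases before the locus of efc25, an exchange factor for Ras, which was at 5.81 and 5.84 FPKM. SPNCRNA.1527 (chromosome II, 2552926-2553784, plus strand) was at 17.2 and 0.734 FPKM, 23.4-fold higher, and rose with q = 0.0478 in the authors' deposited table. Its nearest coding gene tri1, 224 bases away and convergent in a locus of 4 genes, was at 6.42 and 6.94 FPKM. The neighbours' differences were -0.01 for efc25 and -0.10 for tri1.

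SPNCRNA.280, of 226 bases (chromosome I, 5516040-5516265, plus strand), was at 21.0 FPKM in the Atf1-labelled group and had a listed level of 0 in the other. It rose with q = 0.0369 in the authors' deposited table and lies 62.9 kb from a chromosome end. The nearest coding gene, SPAC869.03c, 1174 bases away, was at 5.74 and 0.0827 FPKM (q = 0.436 in the authors' deposited table). The whole RNA in ASM294v3 is shown since it is the called RNA listed at 0 with the vector label.
SPNCRNA.280, chrI:5516040-5516265, plus strand: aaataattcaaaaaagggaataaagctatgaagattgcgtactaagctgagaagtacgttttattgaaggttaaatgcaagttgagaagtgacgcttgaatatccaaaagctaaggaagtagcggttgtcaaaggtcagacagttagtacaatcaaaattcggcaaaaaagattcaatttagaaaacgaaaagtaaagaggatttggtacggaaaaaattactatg

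SPNCRNA.99, of 155 bases (chromosome I, 4434321-4434475, minus strand), had a listed level of 0 in the Atf1-labelled group and 38.7 FPKM in the other. It fell with q = 0.0407 in the authors' deposited table. Its neighbour SPAC9E9.02, 2 bases away in a locus of 2 genes, was at 5.77 and 21.9 FPKM (q = 0.132 there).

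The called RNAs had means between 10 and 30 FPKM, with 1 exception between 3 and 10 FPKM (SPNCRNA.1527). Among the 20 RNAs with a mean of 10 to 30 FPKM the median difference was 1.82, and 10 of them were at least 4-fold higher. The share in that range was 3.87% of all genes kept and 10.6% of noncoding RNAs that share a locus. The median difference also varied with the level. It was 0.80 for 61 RNAs with a mean of 1 to 3 FPKM, 0.56 for 56 with 3 to 10 FPKM and 0.14 for 9 with 30 FPKM or more. Protein-coding genes had medians of -0.31, -0.56, -0.41 and 0.16 in the same 4 ranges, from the lowest to the highest. Noncoding RNAs that share a locus had -0.002, 0.22, 0.42 and 1.29.

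The RNA with the largest difference upwards was not called. SPNCRNA.287 (chromosome II, 21060-21754, minus strand) was at 92.5 and 0.580 FPKM, with p = 0.00975 and q = 0.309 in the authors' deposited table. ASM294v3 holds 1 near-identical copy of this RNA, so how the authors' counting assigned its reads is uncertain. Its neighbour SPBC1348.08c, 356 bases away, was at 11.4 FPKM and listed at 0, and rose with q = 0.00809 in the authors' deposited table.

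The RNA prl51 (SPNCRNA.51, chromosome III), 1 of the prl group of polyadenylated RNAs without a long reading frame, stood at 41.0 and 2.22 FPKM (q = 0.347 in the authors' deposited table). Its nearest coding gene mug42 was at 2.68 and 1.96 FPKM. SPNCRNA.667, which holds the motif, was at 31.9 and 3.87 FPKM (q = 0.201), beside spo20, a phosphatidylinositol transfer protein gene, at 102.4 and 143.0 FPKM. SPNCRNA.284, SPNCRNA.446 and SPNCRNA.385 were at 11.7, 8.63 and 7.62 FPKM in the Atf1-labelled group and at 0.231, 0.0705 and 0.113 FPKM in the other, with q of 0.606 or more in the authors' deposited table. The coding genes beside the latter pair rose by that same table. Next to SPNCRNA.446, fub2 stood at 63.1 and 0.581 FPKM in a locus of 2 genes (q = 0.00809 in the authors' deposited table). Next to SPNCRNA.385, SPBP23A10.11c stood at 320.8 and 58.0 FPKM in a locus of 3 genes (q = 0.0444 there). SPNCRNA.483, of 157 bases and with 1 near-identical copy, was at 5.93 FPKM in the Atf1-labelled group and listed at 0 in the other. It lies 28787 bases from the nearest coding locus, that of the checkpoint kinase gene chk1 (5.07 and 7.47 FPKM), the greatest such distance of any RNA described here.

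Downward differences were smaller. Apart from SPNCRNA.99, the 10 RNAs with the largest downward differences and at least 5 FPKM in a group differed by -1.65 to -0.57. The smallest q of these 9 in the authors' deposited table was 0.653, for SPNCRNA.1278. SPNCRNA.163 was at 1.11 and 5.63 FPKM. Its downstream neighbour eng1, an endoglucanase that separates daughter cells, was at 5.74 and 17.8 FPKM (q = 0.145). SPNCRNA.774, 8 bases from the Hsp110 chaperone gene pss1, was at 2.95 and 9.77 FPKM while pss1 was at 295.4 and 350.1 FPKM. SPNCRNA.1278 was at 6.10 and 13.5 FPKM beside sal3, a karyopherin gene of nuclear transport, at 63.7 and 54.9 FPKM. By the ASM294v3 gene bounds SPNCRNA.1278 overlaps another coding gene, SPCC1840.13, which is then nearer than sal3. SPNCRNA.1600 was at 8.0 and 16.8 FPKM, and dcd1, in an adjoining locus of 3 genes, at 34.3 and 55.7 FPKM. The remaining 4, apart from meu19, were between 2.07 and 2.59 FPKM in the Atf1-labelled group and between 6.22 and 6.81 FPKM in the other. SPNCRNA.443 was at 2.07 and 6.81 FPKM, 37 bases from vma10, a subunit gene of the vacuolar ATPase, at 408.0 and 270.1 FPKM. SPNCRNA.1431 was at 2.32 and 6.49 FPKM beside SPBC27B12.12c at 91.5 and 72.3 FPKM. SPNCRNA.1128 was at 2.43 and 6.32 FPKM beside cyp9, of the cyclophilin family, at 11.02 and 14.2 FPKM. SPNCRNA.311 was at 2.59 and 6.22 FPKM beside mfs1 at 79.6 and 70.2 FPKM. Of the coding genes in these pairs, eng1, pss1, dcd1 and cyp9 were lower with the Atf1 label like the RNA. The genes sal3, vma10, SPBC27B12.12c and mfs1 were higher. Apart from eng1, each had q = 0.997 in the authors' deposited table. The second RNA at least 4-fold lower, SPNCRNA.530 (sno530), had a listed level of 0 in the Atf1-labelled group and 4.29 FPKM in the other, under the 5 FPKM of that list. The kinase gene ppk13 beside it was at 10.8 and 22.9 FPKM, in a locus of 5 genes.

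**Figure D3:**
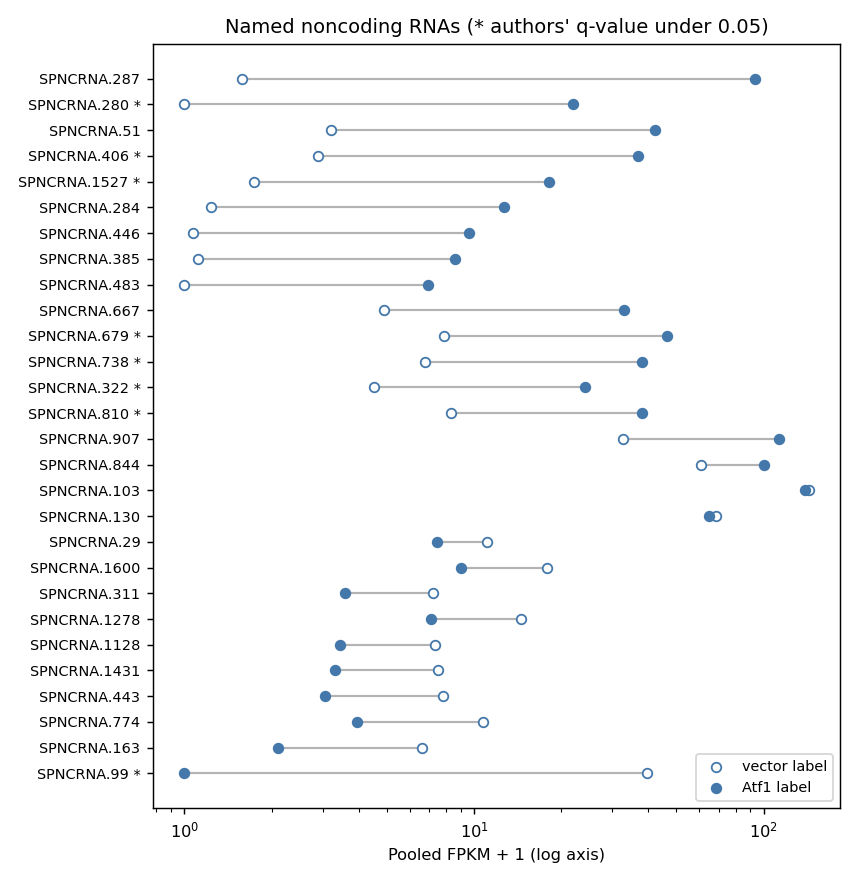
Pooled FPKM + 1 on a log axis of the 28 named noncoding RNAs, with the vector label (open) and the Atf1 label (filled) joined by a line. A star marks an authors' q-value under 0.05. The order is by difference, from SPNCRNA.287 at 5.89 to SPNCRNA.99 at -5.31.

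Of the 5 RNAs with the highest means, SPNCRNA.287 is described above and the other 4 did not pass the authors' q-value of 0.05. The sme2 RNA (SPNCRNA.103, meiRNA) was at 138.5 and 142.6 FPKM, beside the mitochondrial ribosomal protein gene mrpl8 at 46.7 and 93.1 FPKM. The omt3 RNA (SPNCRNA.130) was at 63.6 and 67.6 FPKM, beside apc14, a subunit gene of the anaphase-promoting complex, at 39.7 and 29.7 FPKM. Both RNAs were thus close to level between the groups. SPNCRNA.844 stood at 99.1 and 60.0 FPKM, next to the kinase gene cdr1 at 32.4 and 9.27 FPKM (q = 0.0661 in the authors' deposited table). SPNCRNA.907 was at 112.0 and 31.7 FPKM, with p = 0.006 and q = 0.239 in the authors' deposited table, and its neighbour SPAP32A8.02 at 40.5 and 27.5 FPKM. With median-of-ratios scaling the differences of sme2 and omt3 turned from -0.04 and -0.09 to 0.08 and 0.04.

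The RNAs beside fbp1 and tgp1 did not pass the test either. SPNCRNA.1326 (fbp1-ot2), upstream of the fructose-1,6-bisphosphatase gene fbp1, was at 41.6 and 29.1 FPKM. The fbp1 gene was at 41.9 and 16.1 FPKM, in a locus of 3 genes, with q = 0.559 in the authors' deposited table. SPNCRNA.1343 starts 1661 bases upstream of the glycerophosphodiester transporter gene tgp1 and is transcribed away from it. As annotated, this RNA does not run into tgp1, and whether transcription from its start region bears on tgp1 was not tested. SPNCRNA.1343 was at 20.1 and 16.8 FPKM (q = 0.997 in the authors' deposited table). Its nearest coding gene on the other side, SPBC1271.08c, in a locus of 6 genes, was at 20.6 and 25.2 FPKM. The tgp1 gene was at 34.2 and 7.35 FPKM and rose with q = 0.0241 in the authors' deposited table. The 8 prl RNAs had a median difference of 1.08, with 6 above 0, and of the meiotically induced RNAs, meu3 was at 7.13 and 3.13 FPKM and meu19 at 6.45 and 10.1 FPKM. Beside meu3, SPCC757.02c was listed at 0 with both labels, and beside meu19, SPCC569.06 was at 65.2 and 45.2 FPKM.

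By chromosome, 66 RNAs lie on chromosome I, 47 on II and 33 on III, with median differences of 0.86, 0.71 and 0.77. At least 4-fold higher were 10, 7 and 4 of them, against 5.73%, 6% and 4.81% of all genes kept on chromosomes I, II and III. The authors' q-value called 4 higher on chromosome I, 3 on II and 0 on III, against 1.75%, 2.13% and 1.31% of all genes, and 1 lower on chromosome I, against 0.142%, 0% and 0.175%. With 33 RNAs on chromosome III a count of 0 lies near that background. On chromosome III, at an unadjusted p under 0.05 SPNCRNA.472 had the smallest p-value, 0.00055, at 19.5 and 3.66 FPKM. The median for chromosome III changed with several choices of which RNAs to count. Without the RNAs that have a near-identical copy it was 0.08, and without those within 100 kb of an end 0.21. Without RNAs listed at 0 in a group it was 0.49, and with at least 1 FPKM in both groups 0.07.

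Of the 146 RNAs, 22 lie within 100 kb of a chromosome end, taken as the outermost locus of the table. Their median difference was 1.10, against 0.71 for the 124 farther in. Among the RNAs with at least 1 FPKM with both labels these medians were 0.60 and 0.50. At least 4-fold higher were 6 of the 22 (27.3%), against 38.1% of all 244 genes kept in these regions. Of the 124 farther in 15 (12.1%) were, against 4.33% of all genes kept there. Protein-coding genes within 100 kb had a median of 1.19, and those farther in -0.24. By the authors' q-value, 1 of the 22 RNAs (4.55%) was called higher, against 13.5% of all 244 genes kept within 100 kb. Of the 124 farther in 6 (4.84%) were, against 1.33% of all genes there.

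Near the ends of chromosome I, 9 of 10 RNAs were above 0 with a median of 1.51, and on chromosome II 3 of 4 with 2.13. The median level of these RNAs with the vector label was 0.769 FPKM on chromosome I and 0.459 FPKM on II. Those under 1 FPKM with that label passed the limit on the mean through the Atf1-labelled group, so their differences are above 0 by selection. On chromosome III 5 of 8 were above 0 with a median of 0.90, where the 65 protein-coding genes had a median of -0.01. At the right end of chromosome I, SPNCRNA.280, SPNCRNA.281 and SPNCRNA.282 lie within 1 kb of each other, with differences of 4.46, 1.91 and 1.10. SPNCRNA.283 and SPNCRNA.284 follow with 1.93 and 3.36, next to the flocculin gene pfl9, which was at 70.6 and 0.0834 FPKM (q = 0.653 in the authors' deposited table). Between 82.5 and 73.7 kb from the same end, SPNCRNA.1092 and SPNCRNA.279 differed by 0.60 and -0.28. Of the 8 RNAs with a near-identical copy, 6 are among these 22, among them SPNCRNA.1094 at 8.90 and 1.44 FPKM and SPNCRNA.1299 at 4.38 and 0.523 FPKM, both on chromosome III.

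**Figure D4:**
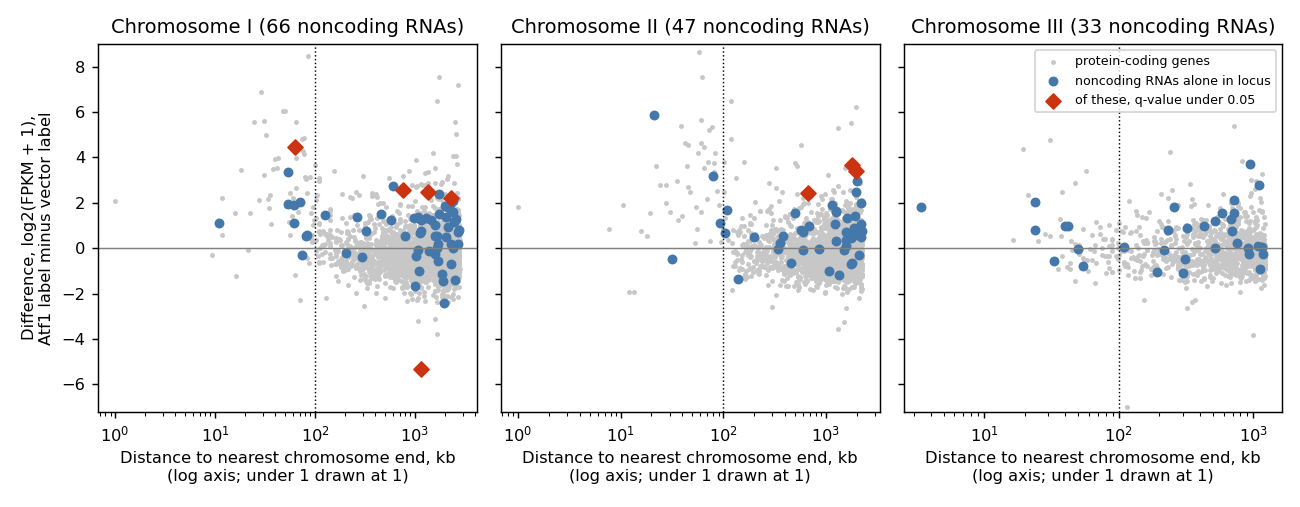
Difference on the log2(FPKM + 1) scale against the distance to the nearest chromosome end in kb (log axis), for chromosomes I, II and III. Blue points are noncoding RNAs alone in their locus, red diamonds those with an authors' q-value under 0.05, grey points protein-coding genes, and the dotted line marks 100 kb. Of the 21 RNAs at or above 2, 6 lie left of that line.

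For 143 RNAs the nearest protein-coding gene was also kept. Across these pairs the differences of RNA and neighbour had a Pearson r of 0.42 and a Spearman rho of 0.38, given as a description over genes that come from the same pooled libraries. Over the 123 pairs farther than 100 kb from an end the values were 0.28 and 0.29, and over the 20 pairs within it 0.69 and 0.80. Protein-coding genes alone in their locus gave 0.35 and 0.18 with their own nearest coding gene over 1694 pairs. The 36 RNAs whose neighbour was at least 1 higher had a median of 1.52, the 96 with a neighbour between -1 and 1 had 0.69, and the 11 with a neighbour at least 1 lower had -0.28. A neighbour between -1 and 1 was found for 10 of the 21 RNAs at least 4-fold higher and for 4 of the 7 called higher.

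Of the 146 RNAs, 11 have a neighbour that rose by the authors' deposited table, and 5 of these RNAs were at least 4-fold higher. Of all protein-coding genes kept 1.71% rose, with 15.1% within 100 kb of a chromosome end and 1.25% farther in. Farther in than 100 kb lie 8 of the 11 RNAs. At least 4-fold higher were 14.4% of the 146 RNAs and 5.74% of all genes kept. Of the 11 RNAs, 8 differed less than their neighbour and 3 more. The 3 were SPNCRNA.287, at 5.89 against 3.63 for SPBC1348.08c, SPNCRNA.385, at 2.95 against 2.45 for SPBP23A10.11c, and SPNCRNA.322, at 2.42 against 1.99 for pfl3. Of the 8 that differed less than their neighbour, SPNCRNA.446 differed by 3.17 and fub2 by 5.34, and the other 7 follow. SPNCRNA.940 was at 10.3 and 1.14 FPKM beside SPAC4H3.08 at 1734 and 8.17 FPKM. SPNCRNA.1154 was at 3.37 and 0.505 FPKM beside wee1, the kinase that delays mitosis, at 281.8 and 5.75 FPKM. SPNCRNA.1549, 100 bases from the glutathione peroxidase gene gpx1, was at 2.51 and 4.72 FPKM while gpx1 was at 2360 and 50.8 FPKM. SPNCRNA.1442, 41 bases from the oligopeptide transporter gene isp4, was at 7.18 and 5.41 FPKM while isp4 was at 77.8 and 5.83 FPKM. SPNCRNA.603 was at 8.18 and 5.31 FPKM beside the hexose transporter family gene ght3 at 83.2 and 14.6 FPKM. These 3 RNAs differed by -0.70, 0.35 and 0.54, and their neighbours by 5.51, 3.53 and 2.43. SPNCRNA.650 was at 18.1 and 5.76 FPKM beside ste7 at 31.1 and 7.07 FPKM. SPNCRNA.217 was at 7.23 and 1.76 FPKM beside the pyruvate decarboxylase gene pdc201 at 70.4 and 18.9 FPKM. The 1 RNA whose neighbour fell, SPNCRNA.279, was at 2.89 and 3.72 FPKM beside SPAC869.05c at 7.54 and 41.0 FPKM (q = 0.0142 in the authors' deposited table).

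By arrangement, 59 RNAs were divergent from their neighbour, 23 convergent, 44 upstream of it on the same strand and 20 downstream of it on the same strand. The median differences were 0.78, 0.12, 0.53 and 1.14 in that order. Of the 7 RNAs called higher 4 are divergent, and 1 each is convergent, upstream and downstream. These are 6.78% of the divergent, 4.35% of the convergent, 2.27% of the upstream and 5% of the downstream RNAs. The share was 4.79% of all 146 RNAs and 1.82% of all genes kept. By the gap to the nearest coding locus, the median was 0.69 for 84 RNAs under 250 bases away, 0.71 for 47 at 250 to under 1000 bases and 1.58 for 15 at 1000 bases or more. The median level with the vector label was 2.69, 2.78 and 0.761 FPKM in these ranges. Most of the last 15 RNAs thus passed the limit on the mean through the Atf1-labelled group, in which they were high. In 62 cases the neighbour's locus holds several genes, and its value is then uncertain. By the ASM294v3 gene bounds the nearest gene was the same for 123 of 142 RNAs.

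**Figure D5:**
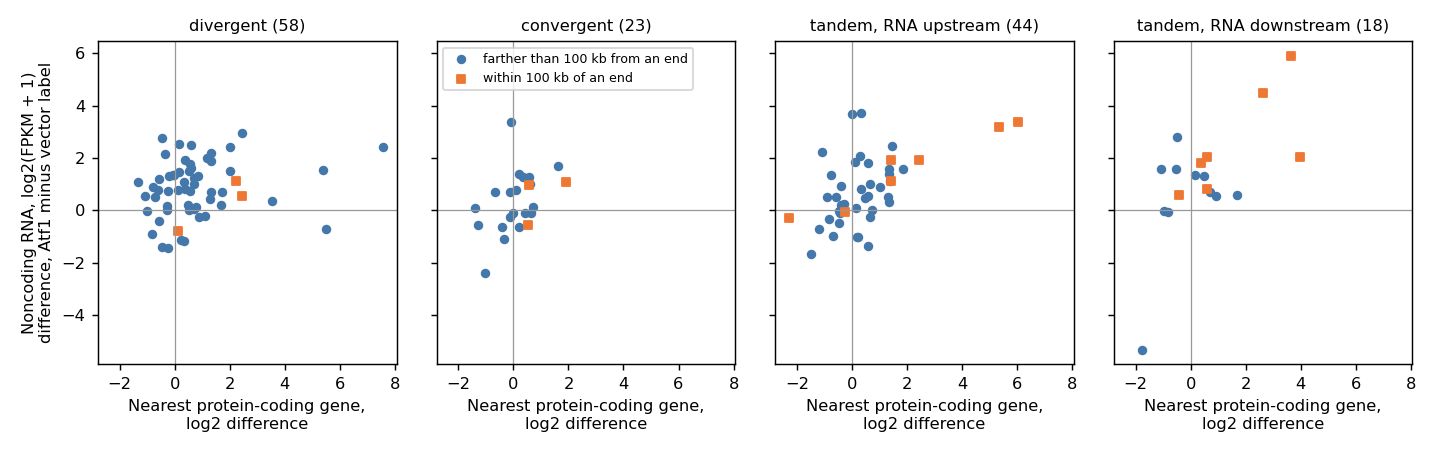
Difference of each noncoding RNA (vertical) against that of its nearest protein-coding gene (horizontal), both on the log2(FPKM + 1) scale, for 143 pairs in 4 arrangements. Orange squares are pairs at most 100 kb from an end and blue points those farther in. Pearson's r over all pairs was 0.42.

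The RNAs stand alone in the authors' table, but in the ASM294v3 annotation 88 of the 142 matched overlap another noncoding RNA on the opposite strand and 3 a protein-coding gene. The libraries are stranded per the labels, but no source used here states whether the counting used the strand, so reads of such partners may not be told apart. The 88 had a median difference of 0.92, and the 53 that overlap no other gene 0.69. Of the 7 RNAs called higher, 3 overlap no other gene.

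Genes of noncoding RNA turnover were described beside the RNAs, as 43 of a list of 44 genes kept. The list holds the exosome, the TRAMP and MTREC complexes with Mmi1, RNA interference, decapping and transcription termination. By the authors' q-value 0 of 43 were called. At an unadjusted p under 0.05, 0 were higher and 2 lower, against 6.8% and 4.04% of all genes, so the lower count is near the background. The 2 were rhn1, which acts in transcription termination, at 5.48 and 18.02 FPKM (p = 0.0156 in the authors' deposited table), and ars2, of the MTREC pathway, at 21.4 and 42.2 FPKM (p = 0.0455). The exosome cofactor gene cti1 was at 8.74 and 25.7 FPKM, and the exonuclease gene exo2 at 12.2 and 22.6 FPKM. The median difference of the list was -0.72, with 7 of 43 above 0, against -0.11 and 44.6% over all genes kept. Protein-coding genes with a mean of 3 to 10 FPKM had a median of -0.56, with 23.5% above 0. Those with 10 to 30 FPKM had -0.41 and 28.1%, and those with 30 FPKM or more 0.16 and 57.7%. Whether the list differs from coding genes of like level was not tested. The exosome subunit genes rrp6 and dis3 were at 14.7 and 23.1 FPKM and at 20.2 and 26.4 FPKM.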

How the data were processed

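Only deposited values were used. Per the submitters' processing notes, reads were handled with HISAT2 and Cuffdiff (no version) on the build ASM294v2. The authors deposited FPKM, pooled to 1 value for each gene in a group, and a p-value and q-value per gene, with 5e-05 as the smallest p-value. No source used here gives the depth or how the groups were scaled. With 2 libraries per group, the authors' p-values may reflect technical spread only. The planned fits per library (limma, DESeq2, a replicate block, leaving out libraries) could not be run on pooled values, so no test was computed here.

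Differences were computed as log2(FPKM + 1) over genes with status OK and a mean of 1 FPKM or more. An exact 0 may be a failed estimate, and is called listed at 0, with no fold. Coordinates are those of the authors' loci, the nearest coding gene is the one with the smallest gap between loci, and an end is the outermost locus. Sequences and overlaps come from ASM294v3, matched by identifier, where 141 of 142 matched RNAs have the same bounds. Copies were searched with BLAST+ 2.17.0 at 95% identity over 50% of an RNA. By rule, the RNAs named are those called, the 10 with the largest difference each way with at least 5 FPKM in a group, the 5 with the highest mean, those with a name (by counts, and by values where a role is known), the nearest coding gene of the RNAs so described, and the 4 turnover genes with the smallest p-value. Other RNAs and genes were named after their values were seen. The RNAs, gene list and alternatives were chosen with earlier results of these data known. The software was Python 3.11.15 with numpy 2.4.6 and pandas 2.3.3, and plots were made with matplotlib 3.10.9. The scripts were tested on simulated data.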

Additional observations from a re-analysis of the deposited data

How the results depend on the processing

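Under 17 alternatives, 87 of 129 values for the counts and medians stayed within 1.5 times the reported ones and none changed sign. With a pseudocount of 0.1, 41 RNAs were at least 4-fold higher and 4 lower, and the chromosome I median was 1.30. With a pseudocount of 5, 6 were higher and 1 lower, and the medians were 0.40 for all RNAs, 0.43, 0.36 and 0.30 on chromosomes I, II and III, 0.55 and 0.37 within and beyond 100 kb of an end, and 0.67 beside a neighbour at least 1 higher. Equal FPKM totals gave 10 higher and medians of 0.31, 0.46, 0.30, 0.20, 0.65 and 0.20 for the same first 6. That scaling moved the median of all genes by -0.61, and the RNAs lay 1.04 above it, against 0.87 as reported. With median-of-ratios scaling sme2 (SPNCRNA.103) and omt3 (SPNCRNA.130) turned to 0.0831 and 0.0375. With a mean of at least 10 FPKM, 11 were higher and 1 lower, and the medians of chromosome I, the ends and raised neighbours were 1.64, 4.46 and 2.31. At q under 0.01, 2 calls were higher and 0 lower. Without a filter the chromosome III median was 0.50, without RNAs listed at 0 it was 0.49 with 0 lower by call or 4-fold, without near-identical copies 0.0849 and without RNAs near ends 0.21. With 1 FPKM in both groups, 11 were 4-fold higher, 0 lower by call or 4-fold, and the medians of chromosome III, the ends and raised neighbours were 0.0716, 0.60 and 1.00. RNAs that overlap no other gene held 3 calls higher and 0 lower, and 10 at least 4-fold higher and 1 lower. SPNCRNA.99, the RNA called lower, has no ASM294v3 entry and was therefore not counted among them. The alternatives on copies, ends, both groups, overlaps and ASM294v3 neighbours were chosen after seeing the data. Apart from those set by the construction of the alternative (fewer RNAs, another pseudocount), the cause was not tested for these shifts. Leaving out a library, limma and DESeq2 were not run on pooled values. No paired analysis was possible because the deposited table gives 1 pooled value per group.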

Other observations

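Of the 146 RNAs, 22 lie in 9 runs of 2 or 3 RNAs with at most 1000 bases between them, and RNAs of a run did not all differ by the same amount. On chromosome II, beside rtn1 and but2, SPNCRNA.1424 was at 7.85 FPKM in the Atf1-labelled and 1.96 FPKM in the vector-labelled group and SPNCRNA.1425 at 10.2 and 2.65 FPKM. SPNCRNA.1423, in the same run, was at 7.96 and 6.24 FPKM. On chromosome I, SPNCRNA.993, which starts 166 bases from the meiotic regulator gene mei2, was at 13.2 and 4.52 FPKM, while its run partner omt3 was at 63.6 and 67.6 FPKM and mei2 at 14.6 and 15.5 FPKM. Between isp4 and the ribosomal protein gene rpl26, SPNCRNA.1442, SPNCRNA.1443 and SPNCRNA.1444 differed by 0.35, 0.12 and 0.72 on the log2(FPKM + 1) scale, with isp4 at 3.53 and rpl26 at 0.71.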
